A study of Homo sapiens with 32 samples.

Results

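The bases described here are single nucleotides of the human genome, each on 1 strand, that carried at least 1 iCLIP tag of Alyref, of Chtop and of Nxf1 and no tag of the FLAG-only Control. A base was counted for a factor when replicate 2 or replicate 3 of that factor listed it, any of the 3 Control replicates excluded it, and the mitochondrial chromosome was left out. Of 2502262 positions listed in the series, 4388 met this rule and are called shared bases. They were set against 3787 control-found bases, which carried tags of the 3 factors and also of the Control, and against 59163 bases of exactly 2 factors and 2243139 bases of exactly 1 factor that the Control lacked. The bases were chosen by their tags in these libraries, so the number of tags they hold is a description, whereas their annotation and sequence were not used to choose them.

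In iCLIP a protein is joined by ultraviolet light to the RNA that it touches. The cDNA mostly ends just before the joined nucleotide, and its end therefore marks the contact. A tag is 1 such cDNA after removal of PCR duplicates by random barcodes. Alyref and Chtop belong to TREX, which ties the making and splicing of mRNA to its export, and both can bind Nxf1, the receptor that carries mRNA through the nuclear pore.

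The cells were HEK293T FlpIn, an established human embryonic kidney line in which a tagged gene is placed at a single recombination site and switched on by tetracycline. The groups were Alyref-FLAG and Chtop-FLAG, each induced with 10 ng/mL for 48 h, Nxf1-FLAG, induced with 5 ng/mL for 48 h, and the FLAG-only Control, for which the labels name no dose. All lines were precipitated with the same anti-FLAG antibody, and each group had 3 replicates, sequenced over 32 lane runs. The labels do not say whether replicates came from separate cultures, so p-values measure the spread between these libraries only. The tagged protein was made from a transgene in addition to the protein of the cell, which limits each line as a model of the endogenous factor.

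Depth was uneven. The 6 factor libraries that the rule used held 118540 to 630540 nuclear tags, replicate 1 held 81133 tags in the Alyref line, 46955 with Chtop and 8105 with Nxf1, and the Control libraries held 6998, 46384 and 36804. At a base with few factor tags, a lower level in the Control was not detectable at this depth. Tags of the 5 HEK293 markers were few. PAX2 had 28 Alyref, 13 Chtop, 7 Nxf1 and 2 Control tags, LHX1 had 0 with Nxf1, and NEFM had 1 Alyref tag and none elsewhere. Of the markers of other cell types, COL1A1 had 30 Alyref, 12 Chtop and 5 Nxf1 tags, about as many as PAX2, while PTPRC, HBA1, ALB and KRT14 had 0 to 3 per group. None of these genes held a shared base, and the markers did not separate the labelled line from other cells.

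The strongest shared bases were mostly outside genes or in introns, and 4 of the 7 sequences below end in a run of at least 7 A. They are shown as the shared bases with the most tags in the factor that had fewest, 10 in all, of which 7 are printed. Each window holds 25 nt of the GRCh37 genome on the strand of the tag, 5′ to 3′, and the capital marks the crosslinked base.
SLC30A10 intron, chr1:220095565-220095589, minus strand: aaacccctgtctCtgcaaaaaaaaa
outside transcripts, chr3:108250279-108250303, plus strand: gtgtaaatcgccTgctgggccatac
outside transcripts, chr1:10884673-10884697, plus strand: ctgcagtgatcaGagtcaaaaaaaa
SLC26A3 intron, chr7:107410706-107410730, minus strand: gaccctgtctcaAatcaaaaaaaaa
outside transcripts, ribosomal DNA match, chr16:33965581-33965605, plus strand: gccgatcagtagTccccgggggtgc
outside transcripts, ribosomal DNA match, chr1:108113131-108113155, minus strand: gtgagctctggaGggcccttgaaag
LINC03031 exon, chr11:32058271-32058295, minus strand: agtttttgctctGgttgaaaaaaaa

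The SLC30A10 base led this list with 1 and 6 tags in Alyref replicates 2 and 3, 6 and 12 in Chtop, and 4 and 4 in Nxf1. Replicate 1, which the rule did not use, gave 0 tags of Alyref, 2 of Chtop and 0 of Nxf1 there. The 24 nt downstream of it occurred 1674 times in the genome, and a Control tag lay 2 nt away. The base at chr3 position 108250291, where the downstream sequence occurred 1 time, held 4 and 2 tags of Alyref, 4 and 3 of Chtop and 6 and 6 of Nxf1, with a Control tag 3 nt away. Of the 10 bases, 6 had a Control tag within 2 nt and only the chr1 base at 10884685 had none within 100 kb, the nearest being 136170 nt away.

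Bases in well-known transcripts looked different. The next windows show the leading shared base of 8 of the 11 genes, among the 25 with the most shared bases, in which no shared base matched an abundant RNA. The genes were picked for display after their values were seen.
XIST exon, chrX:73063577-73063601, minus strand: actttcttagtgTttttagcaggta
MALAT1 exon, chr11:65268726-65268750, plus strand: gttttcagttctTtttcccttaggt
NEAT1 exon, chr11:65191108-65191132, plus strand: tccttttggactTttctctaggttt
ZNF711 3′ UTR, chrX:84527897-84527921, plus strand: agtgtataaactTaaaatatgcatc
IRS4 3′ UTR, chrX:107963204-107963228, minus strand: tctgacttgcctTtccatacagcta
HNRNPH1 3′ UTR, chr5:179041348-179041372, minus strand: taagtttaagctTttttttttttta
SRRM2 3′ UTR, chr16:2821001-2821025, plus strand: cctttccctcccCttttttttttct
DDX17 intron, chr22:38891931-38891955, minus strand: ttgttggtttcaGtgtctagttctg
The crosslinked base was a U in 6 of these 8 windows, and 7 had a U directly 3′ of it.

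Most shared bases rested on the minimum that the rule asks for. At 3884 of them (88.5%) the factor with fewest tags had 1 tag over replicates 2 and 3, at 429 it had 2, and at 75 it had 3 or more, with 7 as the highest value. The median base held 4 tags in all, and 1335 bases held 3. Just outside the rule lay the 59163 bases that lacked a tag of 1 factor and, on the side of the Control, 2103 of the 3787 control-found bases, which had a single Control tag. Replicates 2 and 3 both listed a base in 41.8% of cases with Alyref, 26.5% with Chtop and 30.2% with Nxf1, and 305 bases were in all 6 libraries.

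Every library of the factors had tags at shared bases. Alyref replicates 1, 2 and 3 had tags at 928, 3016 and 3204 of them, Chtop at 556, 3187 and 2364, and Nxf1 at 101, 2746 and 2966. Shared bases took a small part of each library, 0.555% and 0.648% of nuclear tags in Alyref replicates 2 and 3, 0.685% and 0.675% in Chtop, and 2.65% and 1.96% in Nxf1. Nxf1 thus stood above the other factors in the libraries the rule used, which are also the shallowest of those 6. In replicate 1 the shares were 1.27% with Alyref and with Chtop and 1.26% with Nxf1 (95% Wilson interval for Nxf1 1.04% to 1.53%, counting error only), so these libraries did not separate.

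Replicate 1 of each factor gave a readout that the rule had not used. An Alyref replicate 1 tag was found at 21.2% of shared bases, against 53.6% of control-found bases, 3.74% of 2-factor bases that had Alyref tags and 0.327% of 1-factor bases that had them. Chtop gave 12.7%, 45.0%, 2.00% and 0.228% in the same order of sets, and Nxf1 gave 2.30%, 13.5%, 0.555% and 0.0326%. In each factor the order was the same, with shared bases between the control-found bases and the bases of fewer factors. Replicate 1 tags of all 3 factors were present at 25 shared bases and at 346 control-found bases. As there was 1 such library per factor, no test was made.

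Shared bases lay in mRNA exons more often than control-found bases and less often than 2-factor bases. Coding sequence (CDS) took 6.79% of shared bases (298 of 4388) and 3′ UTRs 11.4% (498), where control-found bases had 0.792% and 1.14%. Bases outside annotated transcripts made up 35.9% of shared and 49.6% of control-found bases, introns 17.2% and 21.1%, and non-coding exons 26.3% and 24.3%. Bases of exactly 2 factors had far more CDS (34.7%) and 3′ UTR (26.9%) and less sequence outside transcripts (8.92%). Of those 59163 bases 53174 had Alyref, 50023 Chtop and 15129 Nxf1 tags, so most lacked Nxf1, which had the shallowest libraries of the rule. The contrast is therefore not read as a trend with the number of factors.

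**Figure D1:**
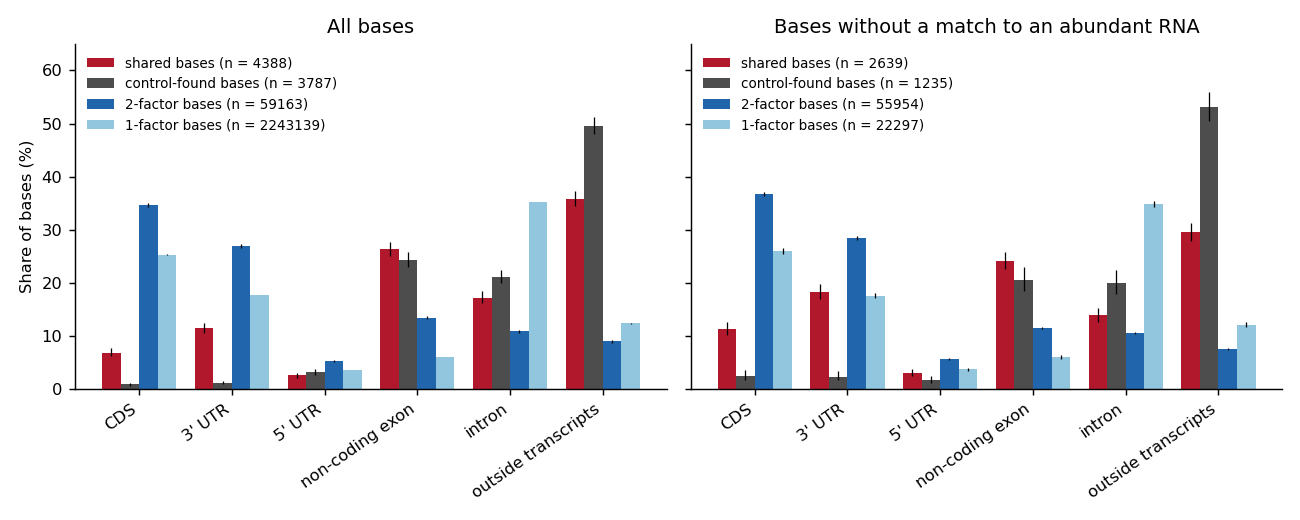
Share of bases (%) by annotated region for shared, control-found, 2-factor and 1-factor bases, over all bases (left) and over those without a match to an abundant RNA (right, where the 1-factor bases are every 100th); bars are shares and lines 95% Wilson intervals. Shared bases lie between control-found and 2-factor bases in CDS, 6.79% against 0.792% and 34.7%, and in 3′ UTR. The intervals take bases as independent, though they cluster.

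To compare the sets over libraries, they were rebuilt within each replicate number, which gave 52, 1550 and 1295 shared and 375, 2380 and 2131 control-found bases for numbers 1, 2 and 3. The 3′ UTR share was 5.77%, 8.0% and 8.03% of shared and 0%, 0.798% and 0.657% of control-found bases, a mean of 7.27% ± 1.30 (SD, n = 3) against 0.485% ± 0.426 (SD, n = 3). The CDS share was 1.92%, 4.71% and 3.48% against 0.533%, 0.588% and 0.329%, a mean difference of 2.89 percentage points. Values of the sets did not overlap for CDS, 3′ UTR or intron (difference for intron -2.41 points), and each gave p = 0.1 in a two-sided exact permutation test, the smallest that 3 against 3 allows, with an adjusted p of 0.2 over 6 measures. For the uracil share at the base (difference 1.48 points) and the share outside transcripts (-1.73 points) the values overlapped (exact permutation p = 0.8 for each). In number 1, where the shared set held 52 bases, 32.7% were uracil against 42.1% of control-found bases, opposite to numbers 2 and 3. Numbers 2 and 3 reused libraries of the rule, and all their shared bases lay in the main set, as did 25 of the 52 in number 1. Both sets of a number came from the same factor libraries, and every Control library entered each number. The values are thus not independent, and the permutation test ignored the pairing. Paired by number, the sign-flip p was 0.25 for CDS, 3′ UTR and intron, the smallest it allows.

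Much of the shared set had the sequence of abundant non-coding RNA. A window of 41 nt around each base was aligned to ribosomal DNA, to 27 small or abundant RNAs and to the mitochondrial chromosome, and an alignment of at least 30 nt at 90% identity counted as a match. Of the shared bases 1749 matched (39.9%), 1245 of them ribosomal DNA (28.4% of shared bases), 98 Y RNA, 86 U2, 74 U6, 56 7SK, 41 U5, 35 5S rRNA, 20 RMRP and 20 vault RNA. Among control-found bases 67.4% matched and 51.4% matched ribosomal DNA, whereas 5.42% of 2-factor bases did so for any RNA. Y RNAs, U snRNAs and 7SK are short nuclear or cytoplasmic RNAs that are not exported as mRNA. These RNAs have near-identical copies, so the locus given to their reads is uncertain.

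Control tags also lay close to many shared bases. Within 5 nt on that strand there was a Control tag for 52.7% of shared bases, 10.2% of 2-factor bases and 1.12% of 1-factor bases, and within 30 nt for 67.7% of shared bases. Where the shared base matched an abundant RNA the 5-nt share was 86.7%, and where it did not 30.2%. Among the 2075 shared bases with no Control tag within 5 nt, 13.2% were in CDS and 21.1% in 3′ UTRs, while the 2313 others had 1.04% and 2.59%. Shared bases away from Control tags were thus richer in mRNA exons.

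Uracil was the commonest crosslinked base. It was found at 48.5% of shared bases (95% Wilson interval 47.0% to 49.98%), 35.97% of control-found, 67.4% of 2-factor and 54.7% of 1-factor bases. This interval is counting error only, as it takes clustered bases as independent. When the sets were rebuilt by replicate number, the uracil shares of shared and control-found bases overlapped (two-sided exact permutation p = 0.8). Without bases that matched an abundant RNA, the uracil share was 58.8% for shared (1553 of 2639) and 34.7% for control-found bases (429 of 1235). Among unmatched shared bases, it was 86.3% in 3′ UTRs, 77.1% in CDS, 70.5% in 5′ UTRs and 69.3% in non-coding exons, but 42.1% in introns and 33.1% outside transcripts. The excess reached the neighbouring bases, with 46.7% uracil at the base before and 52.0% at the base after an unmatched shared base.

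**Figure D2:**
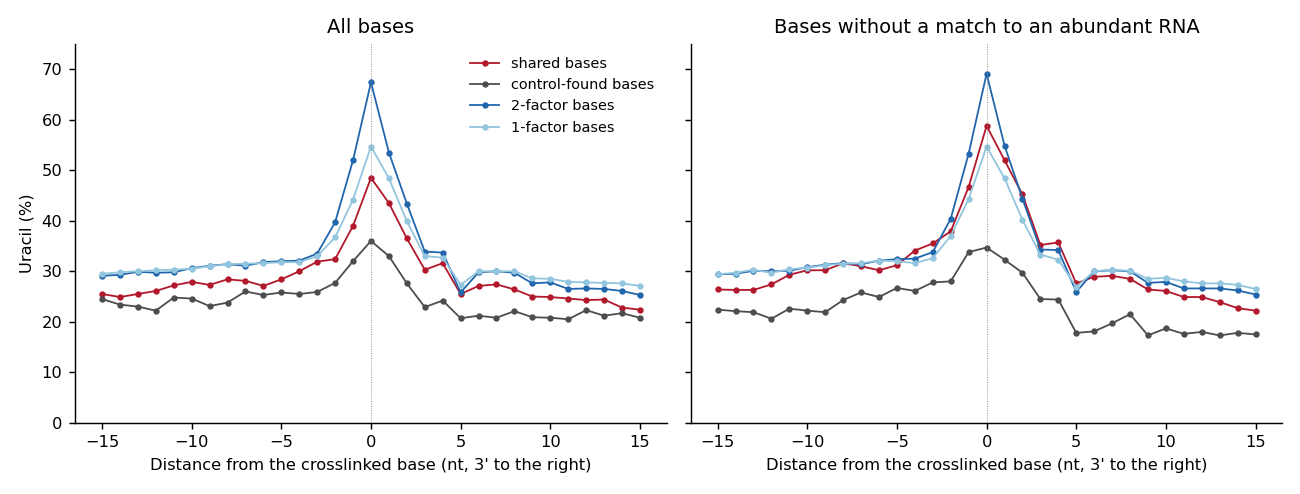
Share of uracil (%) by distance from the crosslinked base in nt, from -15 to 15, for the 4 sets, over all bases (left) and unmatched bases (right, 1-factor bases every 100th). The share peaks at the base in every set, at 48.5% for all and 58.8% for unmatched shared bases, and is lowest for control-found bases.

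Around the base, 4 fixed motifs were counted in windows of 21 nt. TTTTT was present in 22.5% of windows of unmatched shared bases, 10.6% of unmatched control-found, 21.2% of unmatched 2-factor and 17.0% of unmatched 1-factor windows. On the other strand it was present in 10.7% of unmatched shared, 13.8% of unmatched control-found and 3.31% of unmatched 2-factor windows. GAAGAA was rare, in 0.455% of unmatched shared, 0.243% of unmatched control-found and 0.618% of unmatched 2-factor windows. The same was true of GGGGG (1.93%, 1.86% and 1.16%) and CTCTCT (0.720%, 1.70% and 0.729%).

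Bases with more tags in the weakest factor were less often in mRNA exons. CDS held 7.65% of shared bases whose weakest factor had 1 tag, 0.233% of those with 2 tags and 0 of the 75 with 3 or more, which allows up to 4.87% by the Wilson interval. In 3′ UTRs the shares were 12.4%, 2.80% and 4.00%, so a few 3′ UTR bases remained (12 of 429 and 3 of 75), and outside transcripts 33.3%, 55.2% and 57.3%. Uracil fell from 50.6% of bases to 32.9% and 30.7%. These strata use the measure of the rule, so they describe its threshold, and the differences between shared and control-found bases turned direction for CDS, outside transcripts and uracil when at least 2 tags of every factor were asked for (-0.271, 4.62 and -4.90 points).

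A run of at least 8 A within 30 nt downstream, a feature added after the sequences had been seen, was present at 6.31% of shared bases with 1 tag in the weakest factor, 11.0% with 2 tags and 38.7% with 3 or more. Among unmatched bases of 3 or more tags it was 60.4% (29 of 48). In control-found bases with 3 or more tags it was 14.6%, and 28.1% of the unmatched ones (69 of 246). Over all unmatched bases the run was present at 12.2% of shared and 13.7% of control-found bases, so it did not set the shared bases apart from these, and it was present at 2.34% of unmatched 2-factor bases. The run began at a median of 6 nt after the base, and at 90.3% of the 321 shared bases that had one it began within 10 nt. The downstream 24 nt of unmatched shared bases occurred more than 1 time in the genome for 25.7% and more than 10 times for 15.99%. The part of these repeats in the tags was not tested.

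**Figure D3:**
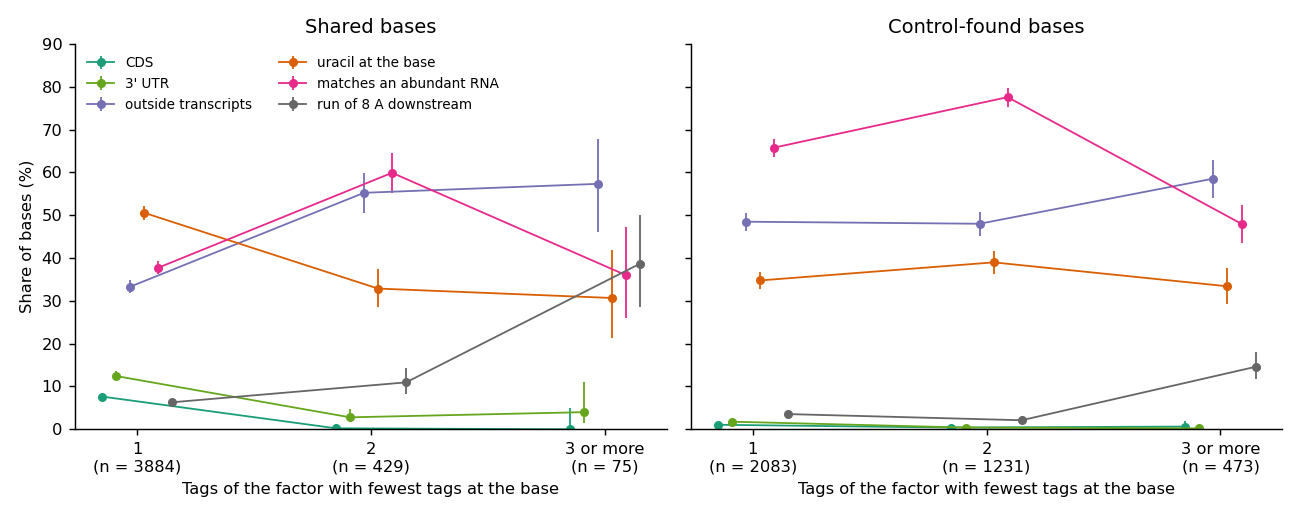
Share of bases (%) with each feature by the number of tags in the factor that had fewest (1, 2, 3 or more), for shared (left) and control-found bases (right); lines are 95% Wilson intervals. In shared bases CDS and uracil are highest at 1 tag (7.65% and 50.6%) and the A run at 3 or more (38.7%), while in control-found bases uracil is highest at 2 tags (38.99%). The intervals take bases as independent, though they cluster.

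Shared bases clustered. Chained at gaps of at most 1000 nt they formed 1556 loci, of which 1119 held a single base, and 50 loci of 10 or more bases held 45.3% of the set. The largest were 187 and 156 bases in XIST, 178 in the ribosomal DNA copy at chr16:33963020-33966056 and 145 in that at chr21:9825452-9827533. Chromosome X carried 14.6% of shared bases (642) and 4.17% of all positions, and XIST held 354 of these.

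A base in exactly 1 gene on its strand was assigned to that gene, which gave 750 host genes for 2381 bases. Of these 561 were protein-coding, 497 held 1 base and 75 held 5 or more. They made up 2.67% of 28130 genes with a factor tag, but 66 of the 100 genes with the most factor tags were hosts, so hosting moved with tag number.

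The 25 genes with the most shared bases were split into 2 kinds by match. In 13 genes most of the shared bases matched an abundant RNA, and these held 464 shared and 629 control-found bases, 25.2% uracil and 90.1% within 5 nt of a Control tag. The other 12 held 619 shared and 130 control-found bases, 72.4% uracil and 42.5% within 5 nt of a Control tag. They held 6419 bases of exactly 2 factors, against 569 in the first kind. XIST weighs heavily in this second kind, with 354 of the 619 shared bases, 63 control-found bases and 177 shared bases near a Control tag. PHKB was counted there too, though 11 of its 28 shared bases matched. It had 42 control-found bases, 21.4% uracil and 25 shared bases within 5 nt of a Control tag, closer to the first kind.

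**Figure D4:**
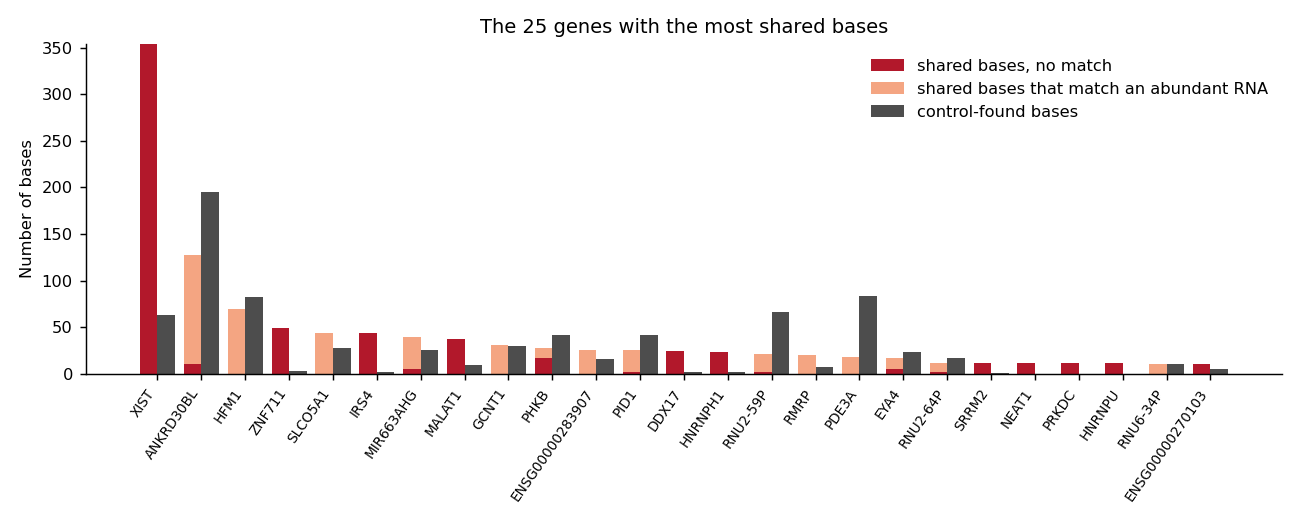
Number of shared bases in the 25 genes that hold most, split by match to an abundant RNA, beside control-found bases of that gene. XIST has 354 shared and 63 control-found bases, while ANKRD30BL has 128 and 195.

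XIST, the non-coding RNA that coats the inactive X chromosome, was the leading host (chrX:73040484-73072558, minus strand). Its 354 shared bases took 292 and 290 tags of Alyref replicates 2 and 3, 319 and 260 of Chtop, and 162 and 233 of Nxf1, and in replicate 1 they took 42, 30 and 3. The whole gene had 62, 379 and 231 tags in the Control, or 11030, 10930 and 10590 CPM. These CPM are tag counts scaled to the tags of the library assigned to genes, without TMM factors. XIST stood at 6227, 7693 and 8413 CPM in Alyref, 10470, 7973 and 8863 in Chtop and 15020, 5096 and 6767 in Nxf1, so the Control lay above every factor library but Nxf1 replicate 1. Of its shared bases 177 had a Control tag within 5 nt. Uracil was crosslinked at 250 of them (70.6%), 352 were exonic, and 187 lay opposite an annotated gene on the other strand. By distance from the 5′ end, 82 lay in the first 5000 nt of the gene, 43 in the next 5000 nt, and then, per 5000 nt, 33, 9, 7, 125 and 55. Control-found bases numbered 22, 14, 5, 0, 0, 13 and 9 in the same stretches.

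Other nuclear RNAs were hosts. MALAT1, an abundant RNA of nuclear speckles, held 37 shared bases, 34 of them uracil, with tags at them of 28 and 31 in Alyref replicates 2 and 3, 33 and 17 in Chtop and 19 and 22 in Nxf1. The Control had 1424, 3145 and 2797 CPM of MALAT1, against 938.5 to 2414 in the factor libraries. NEAT1, which builds paraspeckles, held 12 shared bases, 10 of them uracil, and 0 control-found bases. The Control nevertheless had 3381, 1875 and 2247 CPM of NEAT1, against 669 to 2316 in the factor libraries. ENSG00000270103 (chr1:28975112-28975242), which the annotation types as a lncRNA although it is short, held 11 shared bases within 101 nt and 5 control-found bases. None of the 11 matched a listed RNA, but the list does not hold every small RNA, so its class is uncertain.

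Protein-coding hosts had shared bases in CDS and 3′ UTRs. ZNF711, a zinc finger factor encoded on chromosome X, held 49 shared bases, 19 in the 3′ UTR and 21 in CDS, with 3 control-found bases. IRS4, an adaptor of insulin receptor signalling, held 44, 24 in the 3′ UTR and 20 in CDS. At them Alyref replicates 2 and 3 had 33 and 32 tags, Chtop 45 and 46 and Nxf1 23 and 22. The rule required tags of every factor there. DDX17, an RNA helicase, held 25 shared bases over CDS (10) and 3′ UTR (9) and 2 control-found bases. SRRM2, a scaffold of nuclear speckles, held 12, PRKDC, the catalytic subunit of DNA-dependent protein kinase, 12 with 11 in CDS, and HNRNPU, which binds nuclear RNA and chromatin, 12 with 8 in CDS.

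HNRNPH1, a regulator of splicing, differed in layout, as its 23 shared bases were all in the 3′ UTR within 456 nt (chr5:179041353-179041808). Of these 22 were uracil and 4 had a Control tag within 5 nt. Alyref replicates 1, 2 and 3 had 10, 24 and 18 tags at them, Chtop 1, 21 and 30, and Nxf1 0, 8 and 19.

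Hosts whose bases matched an abundant RNA were mostly long genes with a copy in an intron. ANKRD30BL held 128 shared bases, 117 of them matching ribosomal DNA, and 195 control-found bases, with 249 and 248 tags of the Control replicates 2 and 3 in the gene. HFM1, a helicase of meiosis, held 70, all matching and all within 338 nt, and SLCO5A1 44 matching of 44. GCNT1 (31), PID1 (26), PDE3A (18) and EYA4 (17) were alike, and PHKB held 28 of which 11 matched. MIR663AHG (40) and ENSG00000283907 (26) had 21 and 23 of theirs in non-coding exons and 19 and 3 in introns. RNU2-59P (21), RNU2-64P (12) and RNU6-34P (11) are copies of spliceosomal RNA genes, and RMRP (20), the RNA of the RNase MRP enzyme, had 7 control-found bases.

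Gene lists of RNA processing and translation were counted by how many members with a factor tag were hosts, beside 561 of 16107 (3.48%) for all protein-coding genes. Of SR proteins, which bind exons and link splicing to export, 7 of 17 were hosts (SRRM2, SRSF2, SRSF11, SRSF9, SON, SRSF5 and SRSF10). Of hnRNP genes 7 of 22 were, and of exon junction complex genes 2 of 10 (RNPS1 and ACIN1). Of TREX and export genes 4 of 24 were (DDX39A, CHTOP, MCM3AP and ZC3H18, 1 base each). Of listed lncRNAs 6 of 13 were (MALAT1, NEAT1, TUG1, NORAD, GAS5 and SNHG1), for which protein-coding genes are not a like reference. Cytosolic ribosomal protein genes were hosts in 22 of 86 cases with 32 bases in all, translation factors in 3 of 9, heat shock proteins in 1 of 10, nucleolar proteins in 2 of 7 and histone genes in 5 of 53. The lists were not matched to other genes for the number of tags, so nothing particular to them is read from these shares.

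The share of each library's tags at shared bases by region is given as a description, since every shared base had to hold a tag of each factor in replicate 2 or 3 and 88.5% held 1 in the weakest, which ties the shares of the factors to each other. The CDS share of tags was 1.27%, 5.75% and 4.36% in Alyref replicates 1, 2 and 3, 1.85%, 5.57% and 6.21% in Chtop and 1.96%, 5.64% and 3.69% in Nxf1. For 3′ UTRs it was 3.60%, 10.1% and 8.64% in Alyref, 4.20%, 10.1% and 12.6% in Chtop and 7.84%, 9.46% and 7.23% in Nxf1. The mean of a factor minus that of the other factors ranged from -1.14 points (Alyref, 3′ UTR) to 1.17 points (Chtop, 3′ UTR), against SDs of up to 7.13 points between replicates. Likeness of the factors here is in part set by the rule and is not read as a result.

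**Figure D5:**
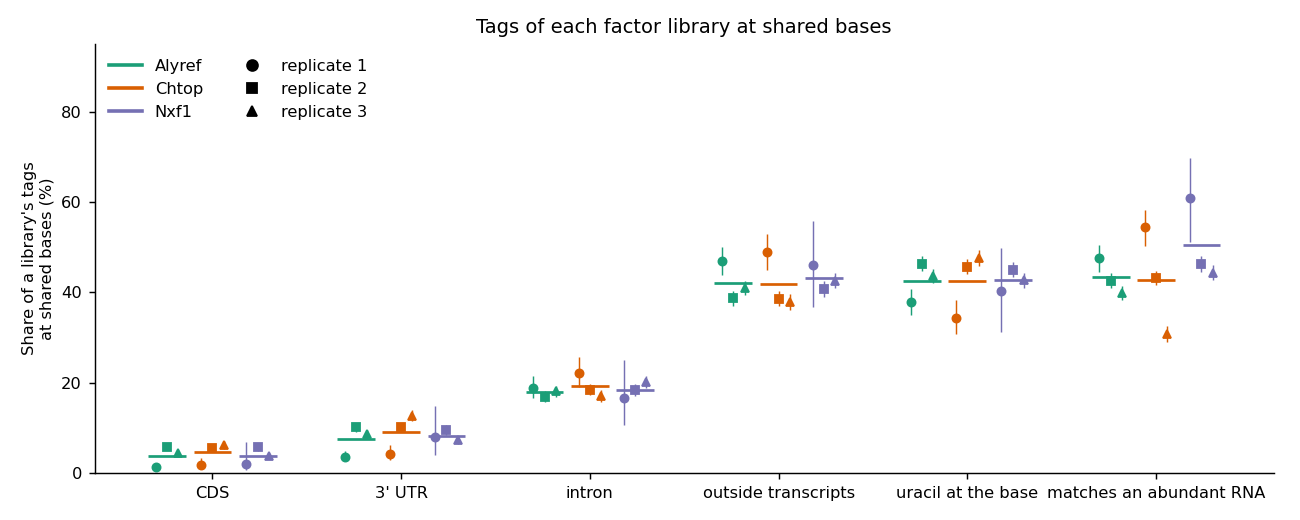
Share (%) of a library's tags at shared bases by region, by uracil at the base and by match to an abundant RNA; points are replicates 1, 2 and 3 with 95% Wilson intervals, and horizontal bars are means of 3 libraries. Replicates of each factor spread over the values of the others, and Chtop replicate 3 has the lowest matched share, 30.7%.

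The share of tags at matched bases spread more by library than by factor. It was 47.5%, 42.6% and 39.8% in Alyref replicates 1, 2 and 3, 54.4%, 43.1% and 30.7% in Chtop and 60.8%, 46.2% and 44.3% in Nxf1. Replicate 1 had the highest value of its factor in each case. This measure was not tested between factors.

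Genes that hosted shared bases were then compared between factors by all of their tags, with a fit over the whole gene table. Of 750 hosts 461 passed the filter on low counts. With edgeR's quasi-likelihood test and Benjamini-Hochberg adjusted p at most 0.05, 98 of the 461 hosts had more tags in Chtop than in the mean of the other 2 factors (17.5% of all 3240 genes tested were called) and 70 had fewer (11.4%). For Nxf1 77 were higher (6.02% of all genes) and 52 lower (8.36%), and for Alyref 7 were higher (1.91%) and 7 lower (0.556%). Of the 420 tested hosts with an unmatched shared base 49 were higher in Nxf1, so hosts whose shared bases all matched an abundant RNA made up the rest of the 77. A host needed Nxf1 tags in replicate 2 or 3, the shallowest libraries of the rule, and the same tags entered the fit, so the share of hosts called is not read against that of all genes. The Control had tags in the same genes, as values below show, and their part in the difference was not tested.

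These counts rested on single libraries. The 77 hosts higher in Nxf1 became 22 without Nxf1 replicate 2, 23 without Nxf1 replicate 3, 47 without Alyref replicate 2, 118 without Alyref replicate 1 and 122 without Chtop replicate 1, and the 52 lower became 18 and 4 without Nxf1 replicates 2 and 3. The 98 hosts higher in Chtop became 48 without Chtop replicate 3, and the 70 lower became 123, 41 and 24 without Chtop replicates 1, 2 and 3 and 38 without Nxf1 replicate 2. For Alyref the 7 higher became 0 without Alyref replicate 2 or 3 (28 and 31 at an unadjusted p of at most 0.05 in edgeR), 11 without Chtop replicate 1, 13, 4 and 2 without Nxf1 replicates 1, 2 and 3, and 14, 16 and 16 without Control replicates 1, 2 and 3. The 7 lower became 36 without Alyref replicate 1, 0 without Alyref replicate 2 or 3 (23 and 28 unadjusted in edgeR), 12 without Chtop replicate 1, 2 without Nxf1 replicate 2 and 11 without Control replicate 3. DESeq2 called 0 hosts for Alyref in either direction (25 higher and 30 lower at an unadjusted p of at most 0.05), so the Alyref calls are uncertain.

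Among hosts of at least 5 shared bases, short non-coding RNAs led those higher in Nxf1 and those lower in Chtop. From here on CPM are scaled with TMM factors over the tested genes, so they do not compare with the XIST, MALAT1 and NEAT1 values. RMRP stood at 294, 188 and 225 CPM in Alyref replicates 1, 2 and 3, 165, 162 and 68.1 in Chtop, 488, 1351 and 738 in Nxf1 and 179, 752 and 402 in the Control. Nxf1 lay above Alyref and Chtop in every library and overlapped the Control. Here and below, Nxf1 replicate 1 rested on few tags, 3 for RMRP, 2 for RNU4-2, 4 for ENSG00000270103 and 3 each for ZNF460 and DDX5. The log2 difference of RMRP from the other factors was 2.57 ± 0.31 (SE) for Nxf1 (edgeR, BH adjusted p = 6.53e-07) and -1.90 ± 0.34 for Chtop (adjusted p = 0.000126).

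RNU4-2, a gene of the U4 spliceosomal RNA, rose in Nxf1 by 2.94 ± 0.32 on the log2 scale (edgeR, BH adjusted p = 5.89e-08), with 325, 1351 and 994 CPM in Nxf1 and 538, 846 and 883 in the Control. ENSG00000270103 rose in Nxf1 by 3.28 ± 0.35 (adjusted p = 5.89e-08) and fell in Chtop by 2.37 ± 0.41 (adjusted p = 6.77e-05), with 650, 1084 and 674 CPM in Nxf1, 165, 41.5 and 73.3 in Chtop and 359, 188 and 482 in the Control. RNU5D-1, a copy of the U5 RNA gene, fell in Chtop by 3.07 ± 0.56 (adjusted p = 0.00013), and its counts there were 3, 6 and 4 tags. Its Chtop replicate 1 value (165 CPM) lay above Alyref replicates 2 and 3 (106 and 114) and Nxf1 replicate 1 (163, from 1 tag). For ENSG00000270103, Chtop replicate 1 also lay above Alyref replicates 2 and 3 (99.9 and 90.7). Nxf1 replicate 1 overlapped Alyref for RNU4-2, where Alyref replicate 1 stood at 383 CPM. Every shared base of RMRP, RNU4-2 and RNU5D-1 matched an abundant RNA, so the placement of tags among copies is uncertain.

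Among hosts of at least 5 shared bases, messenger RNAs led those higher in Chtop, lower in Nxf1 and lower in Alyref. ZNF460, a zinc finger gene, rose in Chtop by 2.02 ± 0.29 on the log2 scale (edgeR, BH adjusted p = 7.75e-06), from 559, 372 and 299 CPM in Alyref and 488, 476 and 241 in Nxf1 to 936, 1292 and 2063 in Chtop. PMAIP1, which encodes the pro-apoptotic protein NOXA, rose there by 1.15 ± 0.28 (adjusted p = 0.00287) and UBE2G2, a ubiquitin-conjugating enzyme, by 1.12 ± 0.28 (adjusted p = 0.0035). The call of PMAIP1 was lost when only exonic tags were counted, and that of UBE2G2 without Chtop replicate 3 (0.74).

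In Nxf1, DDX5, an RNA helicase, fell by 1.68 ± 0.37 (edgeR, BH adjusted p = 0.00361), with 488, 400 and 321 CPM against 948 to 1597 in the other factors. FANCD2, of the DNA crosslink repair pathway, fell by 1.28 ± 0.38 (edgeR, BH adjusted p = 0.0218). The call of FANCD2 was lost without Nxf1 replicate 2 or 3 and in DESeq2, and that of DDX5 without Nxf1 replicate 3 and with exonic tags only. ACTB, cytoplasmic actin, was the only host of 5 or more shared bases called for Alyref, lower by 1.09 ± 0.30 (log2 -1.09, adjusted p = 0.0471). Its CPM in Alyref (118, 188 and 188) overlapped those in Chtop (385, 227 and 168), and the values of Nxf1 replicates 2 and 3 (970 and 561) were the highest, with 0 tags in Nxf1 replicate 1. ACTB was higher in Nxf1 by 1.80 ± 0.32 (edgeR, BH adjusted p = 0.0003451). The Alyref call was lost without Alyref replicate 2 or 3, Chtop replicate 2 or Nxf1 replicate 2 (-1.18, -1.17, -1.07 and -0.84) and in 5 other settings.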

How the data were processed

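The members and the gene lists were chosen with earlier results of these data known. The authors deposited counts, the number of deduplicated iCLIP tags at each base and strand per library, which per the labels came from hg19 alignments made with tools that include STAR 2.4.2a, Bowtie 1.1.2 and UMI-tools 0.5.3. Depth per library is given with the results, and 0 columns of per-sample values were left unused. A base was placed on its strand in coding sequence, then 3′ UTR, then 5′ UTR, then an exon of a non-coding transcript, then intron, with GENCODE release 44 on GRCh37. Windows were aligned with BLAST+ 2.17.0 to a list of abundant RNAs compiled after the data were seen, on the same strand, and the ribosomal DNA unit was 13153 nt of an unplaced GRCh37 contig around its 5.8S copy. Library shares were compared by exact permutation tests (SciPy 1.17.1), with Benjamini-Hochberg adjustment. Tags were counted for 28968 genes, and the 3240 that passed filterByExpr were tested with edgeR 4.0.16 (TMM, all 12 libraries in 1 fit, R 4.3.3). DESeq2 1.42.0 was an alternative. On counts simulated for Nxf1 against the other factors, 96.5% of 200 genes changed 4-fold were recovered among 2611 tested. The changed genes lay above the median abundance and all genes shared a dispersion of 0.0459, so recovery of hosts with low counts was not measured. Named were the 25 genes with most shared bases, the 10 bases with most tags in the weakest factor, and up to 3 called hosts of at least 5 shared bases with the lowest p per factor and direction. Hosts of the gene lists, loci and motifs beyond these were chosen after their values were seen. Of the items these rules select, 1 gene and some sequences are not reported here.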

Additional observations from a re-analysis of the deposited data

How the results depend on the processing

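Differences of shared minus control-found bases (percentage points, in the order CDS, 3′ UTR, 5′ UTR, intron, outside transcripts, uracil) were 5.999, 10.2, -0.579, -3.94, -13.7 and 12.5. With bases in both replicates of every factor (305 bases) CDS, 3′ UTR and intron moved to 0.0389, 1.82 and -0.687, and outside and uracil reversed to 1.44 and -1.82. With at least 2 tags per factor (504 bases) 3′ UTR and intron moved to 2.62 and -0.959, and CDS, outside and uracil reversed to -0.271, 4.62 and -4.90. Without a Control tag within 5 nt (2075 bases) CDS, 3′ UTR, intron, outside and uracil became 12.4, 20.0, -7.82, -22.9 and 23.7, and 5′ UTR reversed to 0.262. Canonical transcripts gave 5′ UTR 0.929 (reversed) and intron -1.24. Leaving out the 10 leading genes gave 3′ UTR 11.5 and intron -0.0993. Weighting by tags gave CDS 4.53, 3′ UTR 8.87 and intron -5.34. Without bases that match an abundant RNA, chosen after seeing the data (2639 bases), CDS, 3′ UTR, intron, outside and uracil became 8.83, 16, -6.13, -23.6 and 24.1, and 5′ UTR reversed to 1.42. With replicate 2 or 3 alone the number was 1295 to 1550, CDS 3.15 to 4.12, 3′ UTR 7.20 to 7.37 and intron -3.75 to -2.18. The cause of these moves was not tested.

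The differences between factors in tag shares are tied by the rule, so they are values with no test read from them, and many changed sign. With bases in both replicates the intron share of Chtop moved to 4.99 points, Alyref and Chtop 3′ UTR reversed to 0.707 and -0.0232, and Alyref uracil to 3.15. Away from Control tags Nxf1 3′ UTR, Nxf1 intron, Alyref outside and Nxf1 outside reversed to 1.89, 1.15, 3.41 and -2.16. Canonical transcripts reversed Alyref intron (0.315), and leaving out the leading genes Chtop outside (0.510). Counting each base once per library reversed Nxf1 3′ UTR (0.00173), Alyref uracil (0.752) and Nxf1 uracil (-0.642). Without matched bases Nxf1 CDS, Nxf1 3′ UTR, Alyref outside and Nxf1 outside reversed to 0.295, 2.96, 3.32 and -1.23. Leaving out single libraries gave, for Alyref, Chtop and Nxf1, CDS -1.34 to 0.900, -0.0690 to 2.12 and -1.34 to 0.496; 3′ UTR -2.46 to 0.772, -0.657 to 3.56 and -0.948 to 0.858; intron -0.423 to 2.14 for Chtop and -1.10 to 0.586 for Nxf1; outside -2.68 to 1.46, -4.45 to 1.15 and -0.337 to 2.55; uracil -1.92 to 2.34, -2.57 to 4.03 and -1.54 to 1.31; and 5′ UTR -0.623 to 0.0550 for Alyref.

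Host genes called higher and lower, in edgeR, were 4 and 0 for Alyref with no filter (75 lower at an unadjusted p of at most 0.05), 15 higher for Alyref with the 9 factor libraries only and 12 without the tags at shared bases. Exonic tags gave 25 and 54 for Alyref, 65 and 108 for Chtop and 33 lower for Nxf1. DESeq2 gave 0 and 0 for Alyref (25 and 30 at an unadjusted p of at most 0.05), 63 and 24 for Chtop and 26 higher for Nxf1. Leaving out single libraries gave 0 to 16 and 0 to 36 for Alyref, 48 to 113 and 24 to 123 for Chtop, and 22 to 122 and 4 to 66 for Nxf1. Named hosts kept their direction in 229 alternatives with and 18 without the call, and none reversed. Of 18 same-numbered pairs of libraries 7 had a correlation of deviations above 0.1 (from -0.178 to 0.253), and 8 of 12 libraries were closest to their own number. Number 2 ran on HiSeq lanes 5 and 6 and numbers 1 and 3 on lanes 7 and 8 in every group, so the numbers share lanes, and the labels name no shared culture or day. With the replicate block the host counts were 5 and 9 for Alyref, 98 and 79 for Chtop and 93 and 52 for Nxf1, the sign-flip p by number was 0.25 for CDS, 3′ UTR and intron, the smallest it allows, and the ACTB call was lost (log2 -1.06) while no other changed. Repeat-masked sequence could not be left out, as the reference marks 0 bases. Nxf1 replicate 1, with 8105 tags, and the Control limit what can be detected.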
